A study of Mus musculus with 16 samples.

Results

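Ribosome biogenesis and RNA polymerase I (Pol I) genes were examined in primary mouse astrocytes with and without the mitochondrial protein NLRX1. The 41 genes were taken by symbol from a list, all 41 were found in the deposited table of log2 CPM (read counts scaled to the size of each library), and they make up 41 of its 16707 genes. By role they comprise 3 core proteins of the box C/D small nucleolar RNA particles (snoRNPs), 4 of the box H/ACA snoRNPs, 3 abundant nucleolar phosphoproteins, 8 factors of the small subunit processome, 5 late small subunit factors, 3 members of the PeBoW complex, 8 other large subunit assembly factors, 4 parts of the Pol I machinery, 2 Pol I regulators and Myc.

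Ribosomes are built in the nucleolus, where Pol I transcribes a single precursor ribosomal RNA that is modified by snoRNPs, cleaved, folded and assembled with ribosomal proteins into a small and a large subunit. The assembly factors leave the particles as these mature and are used again. Pol II transcription of many of the factors is known to be raised by the transcription factor Myc, which binds the E-box CACGTG together with its partner Max, and their level is generally high in growing cells.

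The E-box hexamer was counted in RefSeq promoter windows of build GRCm38.p6, which run from 250 bases before to 50 bases after the start of a gene. The motif searched was CACGTG, which reads the same on both strands. Windows were found for 35 of the 41 genes, and Fbl, Npm1, Rrp12, Bop1, Rrs1 and Myc had none. A gene was counted if any of its windows held the hexamer, and 3 of the 35 genes had 2 or more windows. The hexamer was found for 9 of the 35 genes (25.7%), against 10.9% of 12847 genes of the expression table. It was found for 20 of 111 other ribosome biogenesis genes and 10.2% of 59 ribosomal protein genes. In 7 of the 9 (Utp4, Ltv1, Utp20, Pes1, Mybbp1a, Tsr1 and Wdr43) its first base lay between 3 and 41 bases after the start. With the bases before the start alone, it was found for 2 genes (5.71%), against 9.26% of the genes of the table. These are Nop2, a methyltransferase of large subunit ribosomal RNA, and Rrn3, which brings Pol I to its promoter. Their 250 bases before the start are shown because they are the promoters that hold the hexamer there, with the hexamer in capitals, Nop2 from chr6:125131633-125131882 and Rrn3 from chr16:13780449-13780698, both on the plus strand of GRCm38.p6.
Nop2: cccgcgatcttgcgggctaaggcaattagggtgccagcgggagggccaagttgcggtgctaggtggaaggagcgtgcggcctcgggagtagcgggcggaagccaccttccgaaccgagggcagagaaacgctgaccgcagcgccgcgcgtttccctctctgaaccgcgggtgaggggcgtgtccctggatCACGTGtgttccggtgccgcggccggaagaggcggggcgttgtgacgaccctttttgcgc
Rrn3: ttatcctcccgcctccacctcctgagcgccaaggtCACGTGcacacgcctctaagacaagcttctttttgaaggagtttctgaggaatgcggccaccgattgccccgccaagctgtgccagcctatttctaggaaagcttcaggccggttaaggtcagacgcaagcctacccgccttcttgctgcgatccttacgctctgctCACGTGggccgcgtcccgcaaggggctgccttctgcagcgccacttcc
The first base of the hexamer is at -60 in Nop2 and at -215 and -48 in Rrn3, counted from the start. A match is a string of letters and not a bound site.

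Astrocytes came from C57BL6J WT pups or from NLRX1-/- pups (Nlrx1-/- below), for which the labels name no restriction of the deletion to a cell type, at postnatal day 6, and were positively selected with ACSA-2 beads and grown for about 10 days in serum-free medium with heparin-binding EGF. For each genotype there were 4 biological replicates, here called litters, each a set of pups that gave a well treated with vehicle (water, per the labels) and a well treated with lipopolysaccharide (LPS) at 500 ng/mL together with IFNγ at 10 ng/mL for 24 h. The 16 libraries thus form 4 conditions with n = 4 litters each, and a litter has 1 genotype, so that differences between cultures of different litters and the genotype can be told apart only through the spread among litters. In these bulk samples fewer cells of a type and less RNA per cell cannot be told apart.

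Libraries held between 27259420 and 43752903 assigned read pairs. Nlrx1 was between 4.08 and 4.44 log2 CPM in the 8 WT libraries and between 1.09 and 2.96 in the 8 Nlrx1-/- libraries, which did not overlap. All 10 astrocyte markers examined were in the table, with summed levels of 6200 to 11100 CPM in WT and 5320 to 8770 CPM in Nlrx1-/- libraries. Of 10 microglia markers, 1 was in the table (P2ry12, at most 1.78 CPM). Oligodendrocyte lineage markers summed to 2130 to 3730 CPM, led by Olig1. In vehicle Gfap was at 7.37 and Aqp4 at 8.18 log2 CPM in Nlrx1-/- litter 2, against at least 9.70 and 9.71 in the WT vehicle libraries. Nlrx1-/- litters 4 (8.35 and 9.04) and 1 (9.51 and 9.61) were also below these WT values, and litter 3 (10.45 and 9.89) was not. In LPS+IFNγ Nlrx1-/- litter 4 (8.5 and 7.5) was close to litter 2 (8.61 and 7.25). Counts and the values of some single genes are given with and without Nlrx1-/- litter 2.

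Compared per length, in TPM (transcripts scaled for length and library size) averaged over the 16 libraries, the 41 genes spanned 6.76 to 696 TPM. Npm1, which encodes the nucleolar chaperone nucleophosmin, was highest at 696 TPM, followed by the nucleolin gene Ncl at 257 TPM and Fbl, the box C/D methyltransferase fibrillarin, at 156 TPM. The Pol I subunit gene Polr1e was lowest at 6.76 TPM and rested on as few as 246 reads in a library. Nop58 (78.0 TPM) was the lowest of the box C/D genes and Nolc1 (50.2 TPM) of the phosphoprotein genes, and of the Pol I regulators Mybbp1a was at 74.8 TPM and Ddx21 at 55.2 TPM. Within their groups, Nhp2 (131 TPM) stood above Gar1 (33.7 TPM) among the H/ACA proteins, Wdr43 (40.5 TPM) above Utp20 (10.8 TPM) in the processome, Nob1 (39.0 TPM) above Rrp12 (9.51 TPM) among the late small subunit factors, and Noc2l (64.3 TPM) above Rrp1b (10.7 TPM) among the large subunit factors. Pes1 (49.3 TPM) was the highest and Wdr12 (15.1 TPM) the lowest of the PeBoW genes, as were Rrn3 (41.0 TPM) and Polr1e of the Pol I machinery. Myc was at 74.9 TPM. For Rrp1b part of the reads could not be paired with the symbol, so its TPM is a lower limit.

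**Figure D1:**
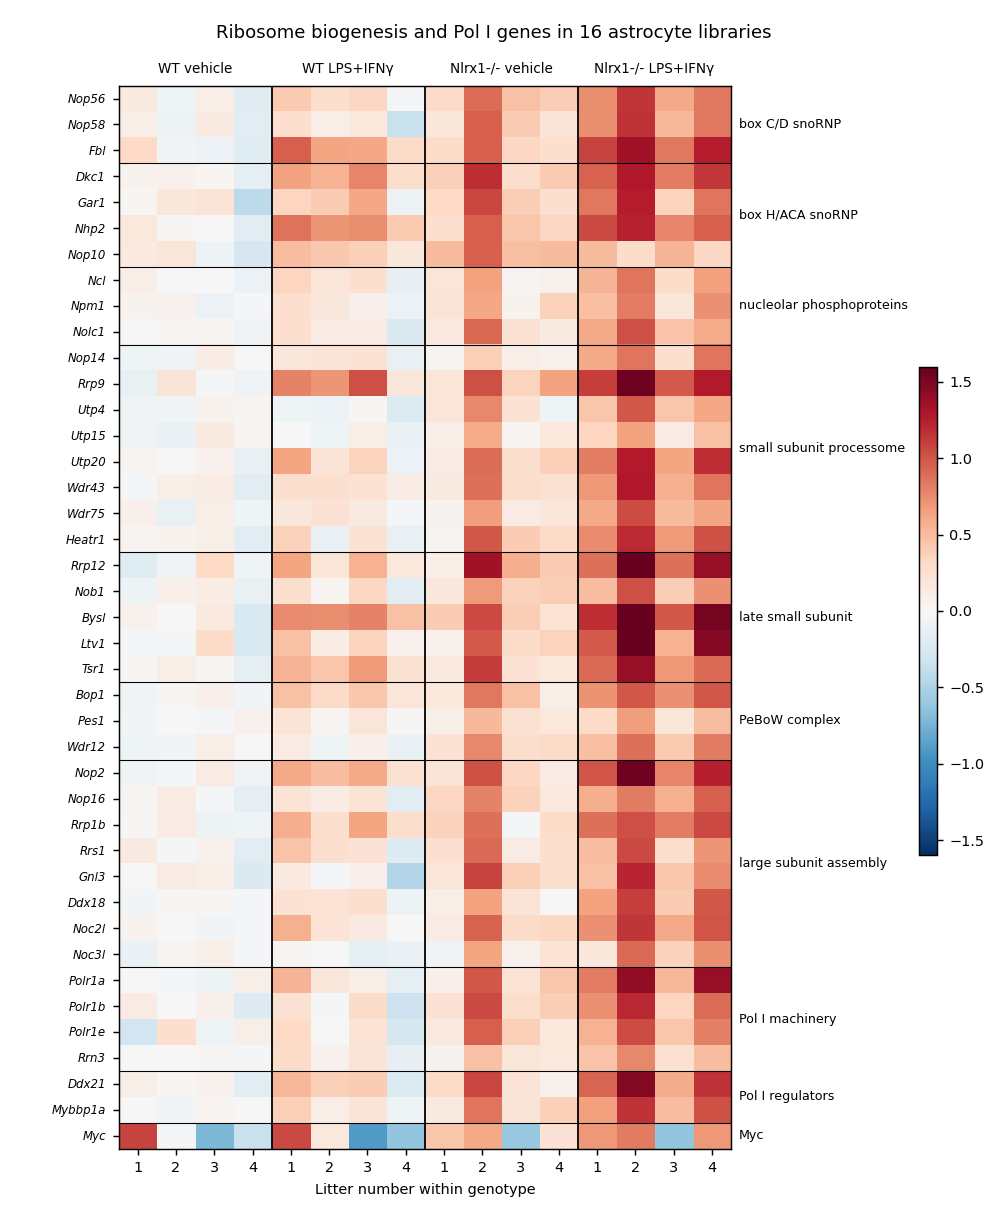
Level of each of the 41 genes (rows, grouped by role) in each of the 16 libraries (columns, litters 1 to 4 in each condition), as log2 CPM minus the mean of the 4 WT vehicle libraries, with red for higher and blue for lower. Nlrx1-/- litter 2 is the darkest column of its block in both treatments, WT litter 4 is the palest of the WT LPS+IFNγ block, and Myc in the last row follows the litters in another way than the other 40 genes.

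To ask how these genes respond to the inflammatory stimulus, the LPS+IFNγ library of each litter was compared with its vehicle library (limma on the deposited log2 CPM, Benjamini-Hochberg adjusted over all 16707 genes, called at an adjusted p below 0.05). In WT astrocytes 17 of the 41 genes rose (41.5%) and 0 fell, against 24.9% of all genes called higher and 21.9% called lower. In Nlrx1-/- astrocytes 37 of 41 rose (90.2%) and 0 fell, against 26.6% and 25.5% of all genes. The median response was 0.17 log2 units in WT and 0.43 in Nlrx1-/- astrocytes, with -0.02 over all genes in both. The WT response lay above 0 for 36 of the 41, all but Utp4, Utp15, Gnl3, Noc3l and Myc (48.6% of all genes), and the Nlrx1-/- response for 40, all but Nop10 (48.0% of all genes). Without adjustment limma placed 19 genes in WT (27.8% of all genes higher and 25.7% lower) and 39 in Nlrx1-/- (29.1% and 28.7%) past the threshold of 0.05, all upward, and edgeR, DESeq2 and limma-voom on the summed counts called 0 lower in either genotype.

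Both responses called 16 genes, Nop10 was called in WT only, 21 were called in Nlrx1-/- only, and Utp15, Pes1 and Polr1e in neither. Such an overlap of calls was not counted over all genes. These counts describe each genotype and do not show that the responses differ, which was tested as the interaction. The response was above 0 in every litter for 18 genes in WT (31.2% of all genes) and for 37 in Nlrx1-/- (29.6% of all genes). By litter, WT litters 1 to 4 had median responses over the 41 genes of 0.32, 0.20, 0.22 and -0.03 log2 units, and for Nlrx1-/- litters 1 to 4 the medians were 0.53, 0.23, 0.25 and 0.64. WT litter 4 thus had hardly any median response, and the 2 genotypes overlapped by litter. WT litter 4 had the lowest WT response for 30 of the genes, and Nlrx1-/- litter 4 the highest Nlrx1-/- response for 31. Such an order was not counted over all genes, so whether it is particular to the 41 was not tested.

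How many genes rose in WT depended on the scaling between libraries. Without the TMM factors (trimmed mean of M-values, the scaling the authors applied), an alternative added once the values were known, the median response of all genes moved to -0.18 in WT and -0.20 in Nlrx1-/-, and that of the 41 genes to 0.00 and 0.26. In WT, 7 of the genes were then called higher (15.5% of all genes) and 5 lower (Utp4, Utp15, Gnl3, Noc3l and Myc, against 36.3% of all genes). In Nlrx1-/-, 23 were called higher (16.9% of all genes) and Nop10 lower (39.3% of all genes). Quantile normalization gave 9 higher and Myc lower in WT, against 18.7% and 28.6% of all genes, and 24 higher and Nop10 lower in Nlrx1-/-, against 19.9% and 31.2%. Leaving out WT litter 1 or WT litter 3 left 10 of the 17 WT calls (21.7% and 21.0% of all genes called higher).

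**Figure D2:**
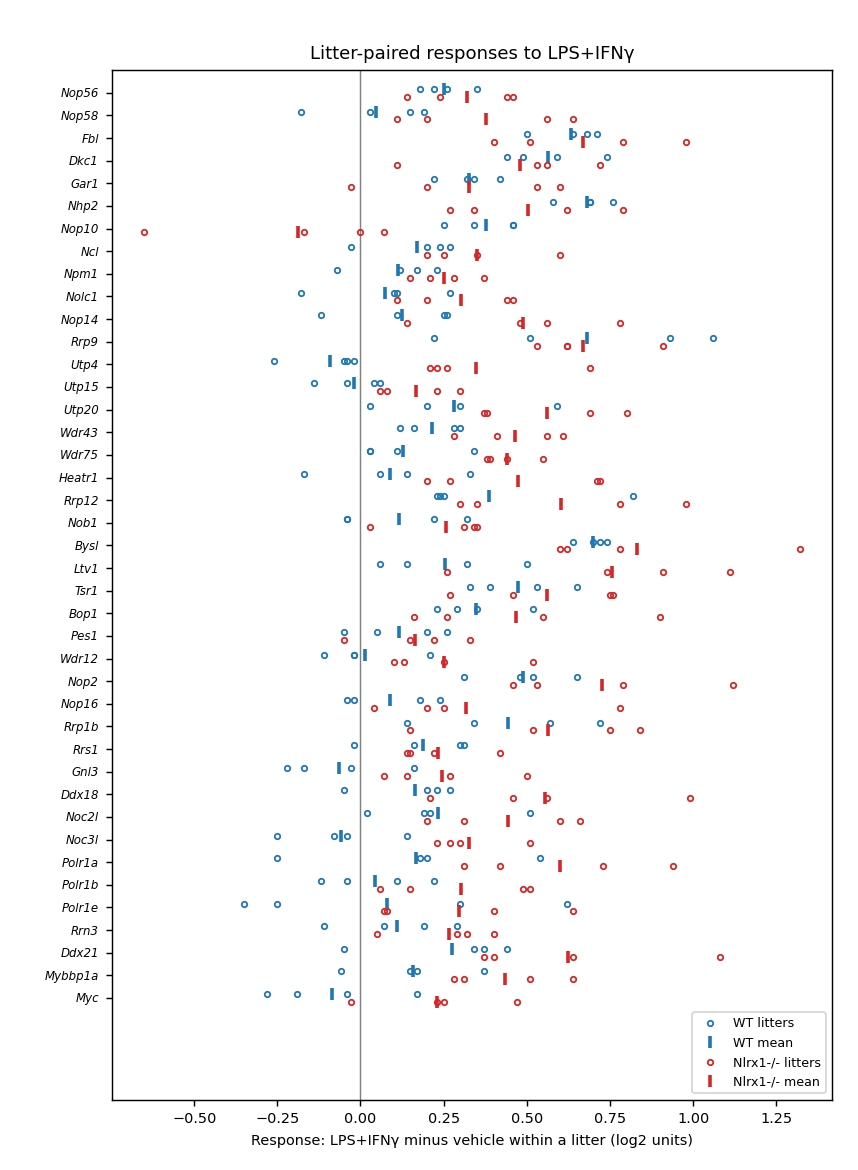
Response of each gene to LPS+IFNγ (x axis, log2 units) by litter, with open circles for the 4 WT (blue) and 4 Nlrx1-/- (red) litters and short bars for the means. Most Nlrx1-/- means lie to the right of the WT means, Bysl, Fbl, Nhp2 and Rrp9 lie far above 0 in both genotypes, and Nop10 is the gene whose Nlrx1-/- mean is below 0. Without the TMM factors 21 of the 41 WT means lie above 0, and 38 Nlrx1-/- means.

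The genotypes were compared in each treatment across litters, in a fit of the 4 conditions. In vehicle, all 41 genes were above WT in Nlrx1-/- astrocytes (51.1% of all genes), with a median difference of 0.41 log2 units against 0.01 over all genes, but 0 were called by limma (0.0% of all genes called higher and 0.00599% lower, which is Nlrx1 alone). Without adjustment 30 of the 41 were past 0.05, against 11.7% of all genes upward, and edgeR and limma-voom called 0 and DESeq2 4 (Nop56, Dkc1, Nhp2 and Nop10, against 2.83% of all genes). The 4 Nlrx1-/- litters lay above all 4 WT litters for 22 genes (6.02% of all genes). Nlrx1-/- litter 2 was the highest of the 8 vehicle libraries for 40 of the 41 genes, the exception being Myc. How often it was highest over all genes was not counted. Without this litter the median difference was 0.24 log2 units (0.01 over all genes), 41 were still above 0 and 12 were past 0.05 without adjustment. The shares of all genes for these counts were not taken in this fit. Without WT litter 1, Nop10 was called (1.98% of all genes called higher), and without Nlrx1-/- litter 3, 7 genes were (4.12% of all genes).

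In LPS+IFNγ, 30 of the 41 genes were higher in Nlrx1-/- than in WT astrocytes (73.2%) and 0 were lower, against 4.4% of all genes called higher and 4.41% lower. All 41 differences were above 0 (49.5% of all genes), with a median of 0.60 log2 units against -0.00 over all genes. The count was 23 with edgeR, 34 with DESeq2 and 14 with limma-voom on the summed counts, against 2.65%, 7.64% and 1.24% of all genes. The genes not called by limma were Fbl, Dkc1, Gar1, Nhp2, Nop10, Ncl, Rrp9, Tsr1, Pes1, Rrs1 and Myc. The litters of the genotypes did not overlap for 28 genes (7.09% of all genes), and for 16 they overlapped in neither treatment (1.66% of all genes). Nlrx1-/- litter 2 was highest for 37 and WT litter 4 lowest for 38 of the 41 genes, an order that was not counted over all genes.

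The calls in LPS+IFNγ were close to the threshold, the smallest adjusted p among the 41 genes being 0.0349 from limma, and single litters decided them, as they did the calls over all genes. No gene of the 41 was called when WT litter 2, 3 or 4 or Nlrx1-/- litter 2 or 4 was left out, where the smallest adjusted p was between 0.0532 and 0.132, while 34 to 38 genes were past 0.05 without adjustment and the median difference was between 0.48 and 0.61. In these 5 fits 0 or 1 of all 16707 genes was called higher and 1 or 2 lower, so the loss is not particular to the 41 genes. The share of all genes past 0.05 without adjustment was not counted in these 5 fits. Without Nlrx1-/- litter 2 the difference was 0.75 log2 units for Ltv1 and Polr1a, 0.66 for Rrp12 and 0.65 for Nop58. It was 0.62 for Gnl3 and Ddx21, 0.59 for Utp4 and 0.56 for Mybbp1a. The calls between the genotypes in LPS+IFNγ given below for single genes were therefore not kept when this litter alone was left out. Without Nlrx1-/- litter 1 the count was 20 (2.35% of all genes), without WT litter 1 it was 30 (5.81%) and without Nlrx1-/- litter 3 it was 38 (11.3%). Leaving out both WT litter 1 and Nlrx1-/- litter 2, also chosen after the data were seen, gave 28 (3.85% of all genes). With litter as a random effect the count was 32 (5.81% of all genes). A fit of the 8 LPS+IFNγ libraries alone, chosen after the data were seen, called 0 of the 41, and 0 of all genes higher and 1 lower. The median difference was the same, 0.60, and 39 of the 41 were past 0.05 without adjustment, a share not counted over all genes in this fit. In the reported fit 39 of the 41 were past 0.05 without adjustment, all upward, against 14.6% of all genes upward and 15.0% downward.

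**Figure D3:**
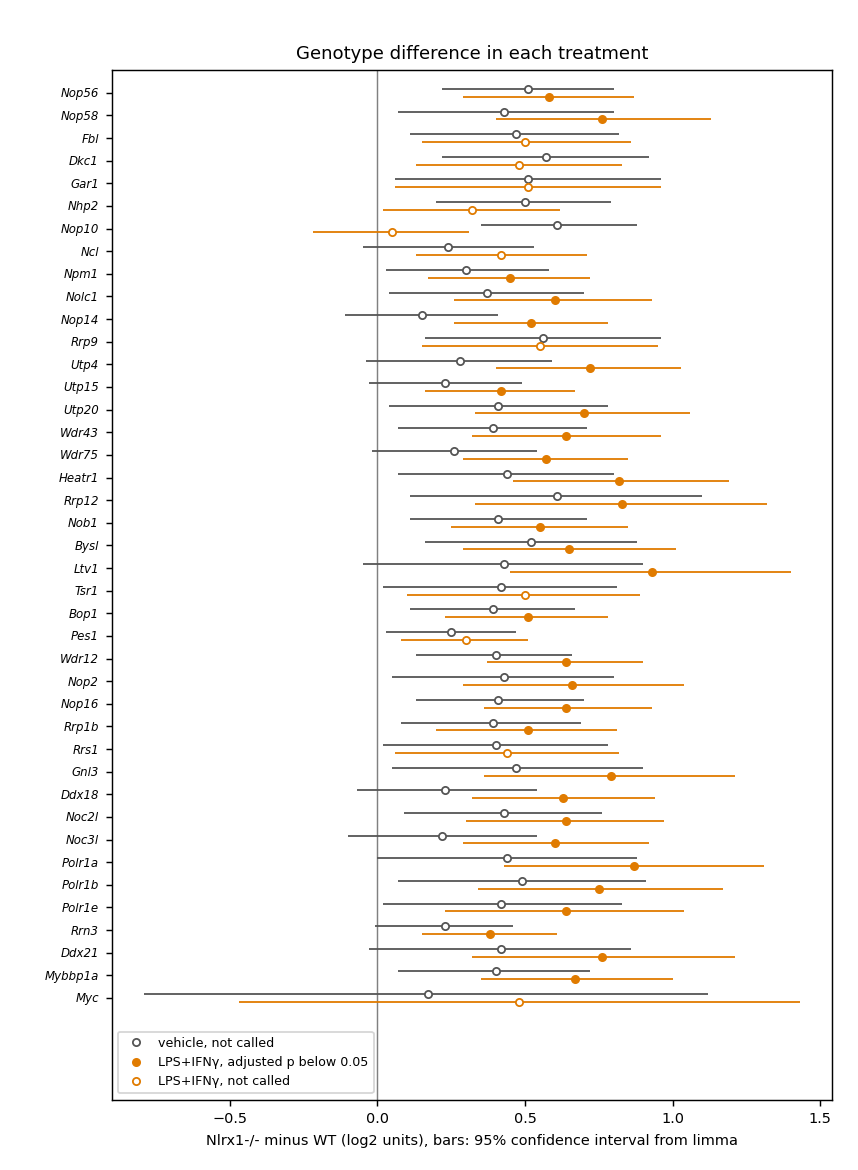
Difference between Nlrx1-/- and WT astrocytes for each gene (x axis, log2 units) in vehicle (grey) and LPS+IFNγ (orange), with 95% confidence intervals from limma and filled points for genes with an adjusted p below 0.05. All points lie right of 0, most LPS+IFNγ points lie right of the vehicle points, Nop10 is the clearest case of the opposite order, and the interval of Myc is the widest.

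Whether the responses differ between the genotypes was tested as the interaction, the Nlrx1-/- response minus the WT response. Limma called 0 of the 41 genes and 0 of all genes in either direction (0.0% each), and edgeR, DESeq2 and limma-voom also called 0 of the 41. Over all genes edgeR and limma-voom called 0, and DESeq2 called 111 higher (0.691%) and 185 lower (1.15%). The interaction lay above 0 for 36 genes, all but Dkc1, Gar1, Nhp2, Nop10 and Rrp9 (48.4% of all genes), with a median of 0.22 log2 units against -0.01 over all genes. Without adjustment 14 genes were past 0.05 upward (6.76% of all genes) and Nop10 downward (9.92% of all genes). Every Nlrx1-/- litter responded more than every WT litter for 4 genes, Utp4, Utp15, Wdr75 and Noc3l (3.06% of all genes). Without Nlrx1-/- litter 3, Ltv1, Ddx18 and Nop14 were called higher and Nop10 lower, against 2.26% and 2.66% of all genes.

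The box C/D proteins Nop56, Nop58 and Fbl form the particle that methylates ribosomal RNA on its ribose. Fbl was at 6.03, 5.66, 5.62 and 5.52 log2 CPM in the vehicle libraries and at 6.67, 6.34, 6.33 and 6.02 in the LPS+IFNγ libraries of WT litters 1 to 4. In Nlrx1-/- litters it was at 6.00, 6.67, 6.04 and 5.98 in vehicle and at 6.79, 7.07, 6.55 and 6.96 in LPS+IFNγ. It rose in every litter of both genotypes, by 0.63 log2 units in WT (SE 0.08, adjusted p = 6.61e-05 from limma) and by 0.67 in Nlrx1-/- astrocytes (SE 0.08, adjusted p = 3.59e-05 from limma), and its interaction was 0.04 with a 95% interval from -0.22 to 0.29. Nop56 also rose in both, by 0.25 and 0.32. Nop58 had a WT response of 0.05 (adjusted p = 0.693 from limma), rose by 0.38 in Nlrx1-/- astrocytes, and was 0.76 higher there than in WT after LPS+IFNγ (adjusted p = 0.0349 from limma).

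The box H/ACA proteins Dkc1 (the pseudouridine synthase dyskerin), Gar1, Nhp2 and Nop10 form the particle that turns uridines into pseudouridine. All 4 rose in WT and none of the 4 was called between the genotypes in LPS+IFNγ. Nhp2 rose by 0.68 in WT, where its litters responded by 0.69, 0.69, 0.76 and 0.58, and by 0.50 in Nlrx1-/- astrocytes, where they responded by 0.79, 0.27, 0.34 and 0.62. The Dkc1 level was 4.93, 4.94, 4.91 and 4.72 log2 CPM in WT vehicle and 5.52, 5.43, 5.65 and 5.16 in WT LPS+IFNγ, a rise of 0.57 (SE 0.09, adjusted p = 0.000286 from limma) in which no treated library reached down to a vehicle library. In Nlrx1-/- litters Dkc1 was at 5.26, 6.06, 5.16 and 5.28 in vehicle and at 5.82, 6.16, 5.69 and 6.00 in LPS+IFNγ. It rose least in litter 2, which started highest, and the rise was 0.48 overall. Dkc1 was 0.57 higher in Nlrx1-/- than in WT vehicle libraries (adjusted p = 0.109 from limma, not called), and 0.36 higher without Nlrx1-/- litter 2. Gar1 rose by 0.32 in both genotypes, with the Nlrx1-/- litters at 0.53, 0.20, -0.03 and 0.60.

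Nop10, the smallest of the H/ACA proteins, differed most between the responses. It was at 4.24, 4.28, 4.00 and 3.82 log2 CPM in vehicle and at 4.58, 4.52, 4.46 and 4.27 in LPS+IFNγ in WT litters 1 to 4, higher in each treated well, and rose by 0.38 (SE 0.11, adjusted p = 0.0130 from limma). In Nlrx1-/- litters it was at 4.59, 5.04, 4.57 and 4.59 in vehicle and at 4.59, 4.38, 4.63 and 4.42 in LPS+IFNγ, without a shared direction. The Nlrx1-/- response was -0.19 (SE 0.11, adjusted p = 0.165 from limma), and -0.03 (SE 0.09, adjusted p = 0.788) without litter 2, whose own response was -0.65. No Nlrx1-/- litter responded as much as any WT litter (5.25% of all genes had such an order). In vehicle all Nlrx1-/- libraries lay above all WT libraries, by 0.61 log2 units (SE 0.13, adjusted p = 0.0928 from limma), the largest vehicle difference of the 41 genes. In LPS+IFNγ the difference was 0.05, with a 95% interval from -0.22 to 0.31. The interaction was -0.56 (SE 0.15, adjusted p = 0.168 from limma, not called), and -0.41 without Nlrx1-/- litter 2.

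The nucleolar phosphoprotein genes Ncl, Npm1 and Nolc1 had WT responses of 0.17, 0.11 and 0.07 log2 units, none called, and rose by 0.35, 0.25 and 0.30 in Nlrx1-/- astrocytes. Npm1 was 0.45 higher (adjusted p = 0.0461) and Nolc1 0.60 higher (adjusted p = 0.0375) in Nlrx1-/- than in WT astrocytes after LPS+IFNγ by limma, whereas Ncl, at 0.42, was not called (adjusted p = 0.0630). Npm1 is known to have processed pseudogenes that can share its reads, so its value is less certain. In WT litter 4 all 3 were lower after LPS+IFNγ, and in every other litter of either genotype they were higher.

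The small subunit processome assembles on the nascent precursor and frees the small subunit RNA. Of its 8 members, Rrp9, Utp20 and Wdr43 rose in WT, and all but Utp15 rose in Nlrx1-/- astrocytes. Rrp9, which binds the U3 snoRNA, had WT litter responses of 0.93, 0.51, 1.06 and 0.22 and Nlrx1-/- litter responses of 0.91, 0.53, 0.62 and 0.62. It thus rose in every litter, by 0.68 in WT (SE 0.13, adjusted p = 0.000858 from limma) and 0.67 in Nlrx1-/- astrocytes (SE 0.13, adjusted p = 0.000816 from limma), and the interaction was -0.01 with a 95% interval from -0.40 to 0.38. Rrp9 was 0.56 higher in Nlrx1-/- vehicle libraries (adjusted p = 0.130 from limma, not called).

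Utp4, a scaffold of the processome that binds the precursor early, was at 4.41, 4.43, 4.53 and 4.52 log2 CPM in vehicle and 4.40, 4.38, 4.49 and 4.26 in LPS+IFNγ in WT litters. In Nlrx1-/- litters it was at 4.66, 5.24, 4.70 and 4.40 in vehicle and at 4.92, 5.47, 4.91 and 5.09 in LPS+IFNγ. Each WT litter was thus slightly lower after LPS+IFNγ and each Nlrx1-/- litter higher. The WT response was -0.09 (adjusted p = 0.421 from limma, not called) and the Nlrx1-/- response 0.35 (SE 0.09, adjusted p = 0.00621 from limma). The interaction of 0.44 (SE 0.13) was not called (adjusted p = 0.174 from limma). After LPS+IFNγ Utp4 was 0.72 higher in Nlrx1-/- astrocytes (SE 0.15, adjusted p = 0.0349 from limma), with no overlap of the litters.

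Heatr1, which is needed for early precursor processing and for Pol I transcription, was at 5.57, 5.09, 5.43 and 5.08 log2 CPM in WT LPS+IFNγ libraries and at 5.96, 6.40, 5.88 and 6.22 in those of Nlrx1-/- litters. The litters did not overlap, and the difference was 0.82 log2 units (1.77-fold; SE 0.17, adjusted p = 0.0349 from limma), or 0.73 without Nlrx1-/- litter 2 (adjusted p = 0.0532 from limma; 0.00114 to 0.132 over all the alternatives tried for this gene). In vehicle it was at 5.24, 5.26, 5.29 and 5.02 in WT and at 5.24, 6.20, 5.61 and 5.51 in Nlrx1-/- litters, where Nlrx1-/- litter 1 lay within the WT range. The other 6 processome genes (Nop14, Utp15, Utp20, Wdr43, Wdr75 and Rrp9) were between 0.42 and 0.70 higher in Nlrx1-/- than in WT astrocytes after LPS+IFNγ, all called but Rrp9.

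The late small subunit factors Rrp12, Nob1, Bysl, Ltv1 and Tsr1 act on the particle on its way to and in the cytoplasm, where Nob1 makes the last cut of the small subunit RNA. Bysl had the largest response of the 41 genes in both genotypes. It was at 4.49, 4.43, 4.57 and 4.18 log2 CPM in vehicle and at 5.18, 5.16, 5.21 and 4.89 in LPS+IFNγ in WT litters. In Nlrx1-/- litters it was at 4.82, 5.47, 4.81 and 4.64 in vehicle and at 5.60, 6.09, 5.41 and 5.95 in LPS+IFNγ. The WT responses of 0.64 to 0.74 were close together and the Nlrx1-/- responses of 0.60 to 1.32 were not, litter 4 being the highest. The rise was 0.70 in WT (1.62-fold; SE 0.10, adjusted p = 0.000149 from limma) and 0.83 in Nlrx1-/- astrocytes (1.78-fold; SE 0.10, adjusted p = 3.17e-05 from limma), with an interaction of 0.13 and a 95% interval from -0.18 to 0.45.

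Ltv1, which has to leave the particle before the small subunit can be used, had the largest genotype difference after LPS+IFNγ. It was at 4.28, 3.93, 4.16 and 3.88 log2 CPM in WT and at 4.79, 5.53, 4.36 and 5.27 in Nlrx1-/- LPS+IFNγ libraries. In vehicle it was at 3.78, 3.79, 4.10 and 3.56 in WT and at 3.88, 4.79, 4.10 and 4.16 in Nlrx1-/- libraries. The genotypes overlapped in vehicle and not in LPS+IFNγ, where Ltv1 was 0.93 higher in Nlrx1-/- astrocytes (1.90-fold; SE 0.22, adjusted p = 0.0349 from limma; 0.00207 to 0.132 over the alternatives, with 0.0506 from limma-voom). Its response was 0.26 in WT (adjusted p = 0.111 from limma, not called) and 0.76 in Nlrx1-/- astrocytes (SE 0.12, adjusted p = 0.000320 from limma), and the interaction of 0.50 (SE 0.18) was not called (adjusted p = 0.203 from limma).

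Rrp12, which takes part in the export of both subunits, was at 4.55, 4.12, 4.48 and 4.09 log2 CPM in WT and at 4.80, 5.63, 4.81 and 5.32 in Nlrx1-/- LPS+IFNγ libraries, without overlap. The difference was 0.83 (SE 0.23, adjusted p = 0.0435 from limma). In vehicle it was 0.61 (adjusted p = 0.168 from limma, not called), and 0.36 without Nlrx1-/- litter 2. Tsr1 rose in both genotypes, by 0.48 and 0.56, and was not called between them, and Nob1 was called in Nlrx1-/- astrocytes (0.26) and between the genotypes after LPS+IFNγ (0.55).

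The PeBoW complex of Pes1, Bop1 and Wdr12 acts in the maturation of large subunit RNA. Its genes did not move as one in the test, although all 6 responses were above 0. Bop1 rose in both genotypes, by 0.35 and 0.47. Wdr12 had a response of 0.01 in WT and rose by 0.25 in Nlrx1-/- astrocytes, and Pes1, at 0.12 and 0.16, was called in neither. After LPS+IFNγ the Nlrx1-/- libraries were 0.51 higher for Bop1, 0.64 higher for Wdr12 and, not called, 0.30 higher for Pes1.

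Of the other large subunit factors Nop2, Nop16, Rrp1b, Rrs1, Gnl3, Ddx18, Noc2l and Noc3l, 4 rose in WT (Nop2, Rrp1b, Rrs1 and Noc2l) and all 8 in Nlrx1-/- astrocytes. Nop2, whose promoter is shown above, responded by 0.65, 0.52, 0.48 and 0.31 in WT litters and by 0.79, 0.53, 0.46 and 1.12 in Nlrx1-/- litters. It rose by 0.49 in WT (SE 0.10, adjusted p = 0.00135 from limma) and by 0.73 in Nlrx1-/- astrocytes (1.66-fold; SE 0.10, adjusted p = 6.04e-05 from limma). The range of the 4 WT litters overlapped that of the Nlrx1-/- litters.

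Gnl3, the nucleolar GTPase nucleostemin, was at 4.87, 4.68, 4.80 and 4.25 log2 CPM in WT and 5.18, 5.93, 5.16 and 5.47 in Nlrx1-/- LPS+IFNγ libraries, all Nlrx1-/- above all WT, a difference of 0.79 (SE 0.20, adjusted p = 0.0366 from limma). Its response was -0.07 in WT, not called, and 0.25 in Nlrx1-/- astrocytes. Ddx18, an RNA helicase, responded by 0.27, 0.20, 0.23 and -0.05 in WT litters and by 0.56, 0.46, 0.21 and 0.99 in Nlrx1-/- litters, of which litter 3 lay within the WT range. The interaction of 0.39 (SE 0.14) was not called (adjusted p = 0.216 from limma). After LPS+IFNγ 7 of the 8 were called higher in Nlrx1-/- astrocytes, by 0.51 (Rrp1b) to 0.79 (Gnl3), the exception being Rrs1 at 0.44.

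Of the Pol I machinery, Polr1a encodes the largest catalytic subunit, Polr1b the second largest, Polr1e a subunit of the polymerase and Rrn3 the initiation factor. None of the 4 was called in WT, with responses of 0.04 to 0.17, and all but Polr1e rose in Nlrx1-/- astrocytes. Polr1a was at 5.82, 5.46, 5.38 and 5.12 log2 CPM in WT and at 6.09, 6.69, 5.81 and 6.67 in Nlrx1-/- LPS+IFNγ libraries. Nlrx1-/- litter 3 lay just below WT litter 1, and the other litters did not overlap. The difference was 0.87 (1.83-fold; SE 0.21, adjusted p = 0.0349 from limma). Polr1a responded by 0.54, 0.20, 0.18 and -0.25 in WT litters and by 0.73, 0.42, 0.31 and 0.94 in Nlrx1-/- litters, with an interaction of 0.43 (SE 0.17, adjusted p = 0.238 from limma, not called). Polr1b, Polr1e and Rrn3 were also higher in Nlrx1-/- astrocytes after LPS+IFNγ, by 0.75, 0.64 and 0.38, so that all 4 were called. Rrn3, whose promoter holds the hexamer at 2 places, had the smallest of these differences.

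The Pol I regulators were Ddx21, a helicase that links Pol I transcription and RNA processing, and Mybbp1a, a nucleolar repressor of Pol I transcription. Ddx21 was at 7.06, 6.91, 6.93 and 6.31 log2 CPM in WT and at 7.46, 8.0, 7.12 and 7.68 in Nlrx1-/- LPS+IFNγ libraries, without overlap, a difference of 0.76 (adjusted p = 0.0412 from limma). Mybbp1a was 0.67 higher (adjusted p = 0.0349 from limma). Both were called in the Nlrx1-/- response, at 0.62 and 0.43, and not in the WT response, at 0.27 and 0.16.

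Myc varied more between litters than between conditions. It was at 7.26, 6.16, 5.45 and 5.82 log2 CPM in vehicle and at 7.23, 6.34, 5.27 and 5.54 in LPS+IFNγ in WT litters 1 to 4. In Nlrx1-/- litters it was at 6.61, 6.78, 5.57 and 6.40 in vehicle and at 6.87, 7.01, 5.54 and 6.87 in LPS+IFNγ. WT litter 1 was thus the highest library in both treatments, WT litter 3 the lowest, and the genotypes overlapped. The genotype difference was 0.17 in vehicle (95% interval -0.79 to 1.12, adjusted p = 0.869 from limma; 0.743 by a two-sided exact permutation test) and 0.48 in LPS+IFNγ (95% interval -0.47 to 1.43, adjusted p = 0.503 from limma; 0.429 by the exact test), where the smallest p that 4 against 4 litters allow is 0.0286. A Myc difference as large as that of most of the other genes can therefore not be told from none. The WT response was -0.08 (SE 0.08, adjusted p = 0.452 from limma) and the Nlrx1-/- response 0.23 (SE 0.08, adjusted p = 0.0363 from limma), a call that was lost with litter as a random effect (SE 0.31, adjusted p = 0.551), with no replicate block (SE 0.45, adjusted p = 0.712), without Nlrx1-/- litter 1, 2 or 4, without both WT litter 1 and Nlrx1-/- litter 2, without the TMM factors (0.05) and by quantile normalization (0.06). The interaction was 0.31 (SE 0.12, adjusted p = 0.227 from limma; 0.0571 by the exact test).

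**Figure D4:**
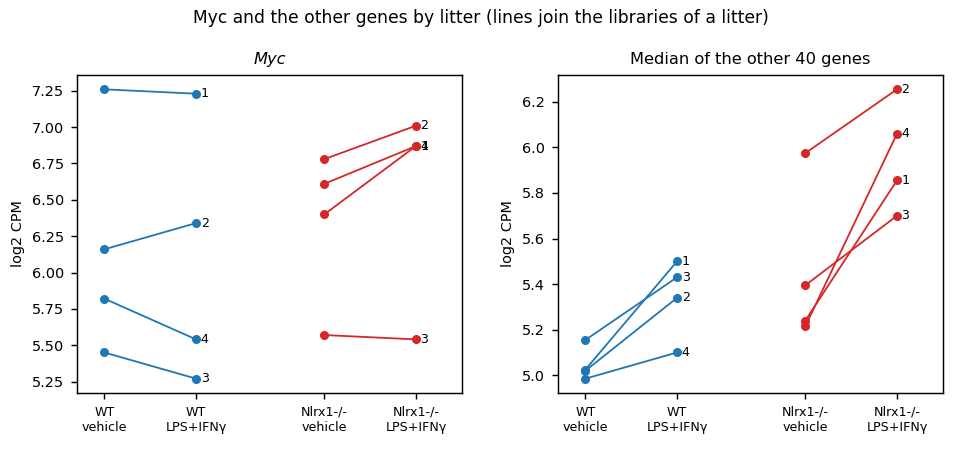
Log2 CPM of Myc (left) and the median log2 CPM of the other 40 genes (right) by condition, with a line joining the vehicle and the LPS+IFNγ library of each litter and the litter number at its right end. WT litter 1 is highest for Myc but lies within the WT litters for the other genes in vehicle, and the Myc lines of both genotypes overlap while the LPS+IFNγ ends of the other genes do not.

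The rest of the pathway was described from lists of genes outside the 41, drawn up with results of these data known. Of 133 other ribosome biogenesis genes, 45 rose and 8 fell in WT (median 0.14 log2 units) and 78 rose and 5 fell in Nlrx1-/- astrocytes (median 0.27). Between the genotypes 0 were called in vehicle by limma, with 119 above 0 and a median of 0.20, and in LPS+IFNγ 39 were higher and 0 lower, with 128 above 0 and a median of 0.32. The medians of the 41 genes were larger, at 0.41 and 0.60. This difference between lists was not tested.

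The 133 genes were not uniform. Among 13 other Pol I genes 3 rose and 2 fell in WT, where the subunit gene Znrd1 rose by 1.08 (adjusted p = 2.37e-06 from limma) and the subunit gene Twistnb fell by 0.27 (adjusted p = 0.0167 from limma), and 3 rose and 1 fell in Nlrx1-/- astrocytes. Of 12 other snoRNP genes 6 rose and 1 fell in WT, with Nufip1, a snoRNP assembly factor, at 0.57 and Naf1, which acts in the assembly of H/ACA particles, at -0.43, and 6 rose in Nlrx1-/- astrocytes. Of 44 other small subunit genes 10 rose and 2 fell in WT and 28 rose and 1 fell in Nlrx1-/- astrocytes, and Noc4l rose most in both, by 1.08 and 1.10. Of 50 other large subunit genes 21 rose and 3 fell in WT and 34 rose and 3 fell in Nlrx1-/- astrocytes, with Rrp15 at 0.51 in WT, Ddx24 at 0.86 in Nlrx1-/- astrocytes and Ddx51 at -0.39 and -0.35. Of 14 genes of the RNA exosome, which trims ribosomal RNA precursors, 5 rose in WT and 7 in Nlrx1-/- astrocytes, and Exosc3 rose most in both, by 0.51 and 0.46.

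Ribosomal protein genes differed from the assembly genes in their counts. Of 80, 48 rose and 1 fell in WT (median 0.15) and 5 rose and 2 fell in Nlrx1-/- astrocytes (median 0.01). In vehicle all 80 were above WT in Nlrx1-/- astrocytes (median 0.27) and in LPS+IFNγ 73 were (median 0.13), with 0 called by limma in either. The interaction was above 0 for 6 of the 80 (median -0.13) and for 36 of the 41 assembly and Pol I genes (median 0.22), with 0 called in both lists. Rps27l, a paralogue of Rps27, rose by 0.70 in WT and 0.80 in Nlrx1-/- astrocytes, and Rpl22 fell by 0.21 and 0.31. Ribosomal protein genes have many pseudogenes that can share their reads.

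Of 11 other genes of the Myc network, 2 rose and 7 fell in both genotypes. Mycn, a paralogue of Myc, fell by 1.36 log2 units in WT and by 1.34 in Nlrx1-/- astrocytes, while Mlx, a partner of related factors, rose by 0.54 and 0.67.

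Other groups moved across the same libraries. Of 18 p53 target genes, 14 rose and 2 fell in WT and 16 rose and 2 fell in Nlrx1-/- astrocytes, led by Gdf15 (2.27 and 2.70) and with Btg2 falling (-1.02 and -1.16), and 11 were higher in Nlrx1-/- astrocytes after LPS+IFNγ. Of 20 proliferation genes, 10 rose and 4 fell in WT, with Mcm3 rising by 0.90 and Ccnb2 falling by 0.39. In Nlrx1-/- astrocytes 0 rose and 11 fell, with Mki67 falling by 0.78. All 20 lay above WT in Nlrx1-/- vehicle libraries (median 0.28 log2 units), and 4 did in LPS+IFNγ (median -0.28). Their interaction was above 0 for 0 of the 20 (median -0.51), and 0 were called by limma in these comparisons. Of 10 astrocyte markers 4 were lower in Nlrx1-/- astrocytes after LPS+IFNγ, S100b most, with a difference of -2.22 log2 units, and 0 of 10 were above 0. Gfap was at 9.51, 7.37, 10.45 and 8.35 log2 CPM in Nlrx1-/- vehicle libraries and at 9.70 to 11.34 in those of WT, lowest in litters 2 and 4. The part of the makeup or growth state of the cultures in the genotype differences of the 41 genes was not tested.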

How the data were processed

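Poly-A RNA of 16 libraries was sequenced in pairs with a kit that does not keep the strand, so reads from a gene and an antisense partner cannot be told apart. Quantification by the authors used Salmon 1.7.0 against a RefSeq transcript index of GRCm39, and the deposited expected counts per transcript are Salmon's estimates without normalization. The deposited TPM divide these by length within each library. The CPM signal the authors deposited was scaled with TMM factors, so its columns sum to between 923353 and 1109135, and their log2 CPM are the logs of these values with a small prior count.

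The genes were read from the log2 CPM table, and tests were run on all 16707 of its genes with limma 3.58.1 (eBayes with a trend, R 4.3.3). P-values were adjusted by Benjamini and Hochberg's method and called below 0.05. Responses and the interaction were fitted with litters as blocks within genotype, the design of the study. The genotype was tested in a fit of the 4 conditions. This fit has no litter term because a litter has 1 genotype, so the p-values treat the 2 libraries of a litter as separate. The series' design text states that these come from the same mice, and their deviations from the condition means had a Pearson r across genes of 0.0733 to 0.355, against medians of -0.0295 and -0.0789 for other litters of the genotype. Expected counts were rounded and summed per gene over the 106430 of 129698 transcripts paired with a symbol (96.7% to 97.3% of reads) for the alternatives with edgeR 4.0.16, DESeq2 1.42.0 and limma-voom (filterByExpr, minimum count 10). TPM were summed likewise. Depth and precision enter through the spread between litters. The fits were tested on simulated data. Summaries and exact permutation tests used Python 3.11.15, pandas 2.3.3, numpy 2.4.6 and scipy 1.17.1.

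Conditions and litters follow the labels, with 0 libraries unmapped. The 41 genes, their roles and the other lists were chosen with earlier results of these data known. Values per library are given for Myc and, in each of the 5 comparisons, the 5 genes with the largest absolute difference, with others by range. TPM are given for the highest and lowest gene of each role, and from each other list the called genes with the largest rise and fall in each response are named. Promoter windows are RefSeq's on GRCm38.p6, a build other than the authors', and no coordinates were converted.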

Additional observations from a re-analysis of the deposited data

Results flagged for a closer look

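In 164 groups of 4 libraries, the highest or lowest library was tested against the gap to the others by Dixon's criterion at the 95% level, which chance passes in about 1 of 20 groups. It was passed 13 times. In Nlrx1-/- vehicle, litter 2 was set apart as the highest for 7 genes, Fbl (6.67 log2 CPM, the others 5.98 to 6.04), Dkc1 (6.06, the others 5.16 to 5.28), Gar1 (4.87, the others 4.06 to 4.19), Nop10 (5.04, the others 4.57 to 4.59), Nolc1 (7.15, the others 6.38 to 6.48), Tsr1 (6.48, the others 5.52 to 5.59) and Wdr12 (5.12, the others 4.58 to 4.66). WT litter 4 was set apart as the lowest in vehicle for Dkc1 (4.72, the others 4.91 to 4.94). In LPS+IFNγ it was the lowest for Nop14 (4.95, the others 5.25 to 5.30), Wdr43 (5.78, the others 5.90 to 5.92), Bysl (4.89, the others 5.16 to 5.21) and Ddx18 (5.17, the others 5.47 to 5.51). In Nlrx1-/- LPS+IFNγ, litter 3 was the lowest for Myc (5.54, the others 6.87 to 7.01).

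The response of Utp4 lay below 0 in every WT litter and above 0 in every Nlrx1-/- litter. The WT response, -0.09, was not called (adjusted p = 0.421 from limma). The difference of the responses was 0.44 log2 units and was not called in the test of the interaction (adjusted p = 0.174 from limma).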

How the results depend on the processing

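Of the counts of called genes in the 5 comparisons, 167 of the values under other settings were within 1.5 times the reported count and 27 were not. Most of the 167 set a reported count of 0 against 0 again, so they say little about the counts above 0. Percentages in brackets are shares of all genes. The WT response (17 genes higher, 0 lower) gave 9 higher (18.7%) and 1 lower (28.6%) by quantile normalization. It gave 11 higher with litter as a random effect (24.9%) and 9 with no replicate block (19.8%). Without both WT litter 1 and Nlrx1-/- litter 2 it gave 11 (22.6%), and without the TMM factors 7 higher (15.5%) and 5 lower (36.3%). Without 1 litter it gave 10 to 19 higher (20.5% to 25.8%), lowest without WT litter 1 or 3. The Nlrx1-/- response (37 higher, 0 lower) gave 24 higher (19.9%) and 1 lower (31.2%) by quantile normalization and 22 higher with no replicate block (21.8%). It gave 23 higher (16.9%) and 1 lower (39.3%) without the TMM factors, and 29 to 38 higher without 1 litter (22.9% to 26.1%). In vehicle the genotype count (0) was 4 with DESeq2 (2.83%) and 4 with the replicate block (2.14%). It was 0 to 7 without 1 litter, being 1 without WT litter 1 (1.98%) and 7 without Nlrx1-/- litter 3 (4.12%). In LPS+IFNγ (30) it was 14 with limma-voom (1.24%), 0 in the 8 libraries alone (0.0%), and 0 to 38 without 1 litter (0.0% to 11.3%). The interaction counts (0 and 0) were 3 higher (2.26%) and 1 lower (2.66%) without Nlrx1-/- litter 3, and 0 without any other litter. Fits without both litters, without the TMM factors or on 8 libraries were chosen after the data were seen. Fewer samples entered the fits without a litter and on 8 libraries, and for the other settings the cause was not tested.

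The replicate block in the genotype comparisons uses numbers that WT and Nlrx1-/- litters merely share, with same-numbered deviations correlated at r between -0.0892 and 0.18 across genes. It gave 35 of the 41 in LPS+IFNγ, against 8.2% of all genes called higher. Among values of single named genes, 558 kept their direction and side of the threshold, 51 lost and 12 gained a call, and 1 turned, the vehicle difference of Myc, which was -0.07 without WT litter 3 and -0.07 to 0.53 over all leave-outs of 1 litter. With 4 litters per genotype, the interval of a genotype difference spans from 0.43 (Pes1) to 1.91 log2 units (Myc).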

Other observations

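The median level of the 41 genes was 5.24, 6.06, 5.43 and 5.26 log2 CPM in the vehicle libraries of Nlrx1-/- litters 1 to 4 and 5.52, 5.37, 5.43 and 5.12 in the LPS+IFNγ libraries of WT litters 1 to 4. Nlrx1-/- vehicle libraries thus overlapped WT LPS+IFNγ libraries. The summed level was 2180 to 2470 CPM in WT vehicle, 2200 to 3080 CPM in WT LPS+IFNγ, 2620 to 4010 CPM in Nlrx1-/- vehicle and 3100 to 4790 CPM in Nlrx1-/- LPS+IFNγ libraries. Ribosomal protein genes summed to 31600 to 34300 CPM in WT vehicle, 34200 to 37700 CPM in WT LPS+IFNγ, 35800 to 43700 CPM in Nlrx1-/- vehicle and 36300 to 43200 CPM in Nlrx1-/- LPS+IFNγ libraries. The p53 target gene Cdkn1a, which encodes an inhibitor of the cell cycle, was at 7.29, 8.09, 6.66 and 8.05 log2 CPM in the LPS+IFNγ libraries of Nlrx1-/- litters 1 to 4 and at 6.02 to 6.70 in those of WT litters. Nlrx1-/- litters 2 and 4, the highest of these for Cdkn1a, also had the highest median level of the 41 genes after LPS+IFNγ, at 6.35 and 6.12 log2 CPM. Whether these are related was not tested.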
